A study of Mus musculus with 3 samples.

Results

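The mGluR6 cascade of ON bipolar cells was followed through 8 genes chosen by name, Grm6, Trpm1, Gpr179, Rgs11, Gng13, Gnao1, Pcp2 and Cabp5, out of 18545 genes measured by single-cell RNA-seq of mouse retina. The genes were described in 6 of the authors' clusters that were taken here as bipolar (clusters 2, 3, 6, 7, 8 and 10). These held 4912 of 15242 cells. Rods (cluster 1), cones (cluster 4), Müller glia (cluster 0) and amacrine cells (clusters 5 and 9) served as background. Retinas came from C57BL/6J mice at 8 weeks of age that had lived in darkness, and each of the 3 groups was 1 library made from a pool of retinas. The WT group was wild type on base chow and, by the study's methods, included both sexes. The rd10-vehicle and rd10-TMB groups were females carrying the rd10 point mutation of Pde6b, the gene for a subunit of the rod phosphodiesterase, in which rods degenerate and darkness slows the loss. The rd10-vehicle group ate the same base chow, and the rd10-TMB group ate chow with tamsulosin (a blocker of α1 adrenergic receptors), metoprolol (a β1 blocker) and bromocriptine (an agonist of D2 dopamine receptors). The labels give 1 retina from each of 4 mice per pool. The study's own text names fewer mice for both rd10 pools, and neither source ties a cell to a mouse.

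ON bipolar cells are the retinal interneurons that depolarize when light falls on photoreceptors, and they do so by inverting the photoreceptor's signal. In darkness, glutamate from the photoreceptor binds mGluR6, the receptor encoded by Grm6, on the dendrite of the ON bipolar cell. The receptor activates the G protein Go, whose α subunit is encoded by Gnao1 and whose γ subunit by Gng13, and the G protein closes the cation channel TRPM1, encoded by Trpm1. In light, the RGS proteins, Rgs11 among them, help to switch Go off, and Gpr179 encodes the orphan receptor that holds them at the dendritic tip. Rod bipolar cells and ON cone bipolar cells use this cascade, whereas OFF cone bipolar cells use ionotropic glutamate receptors. Pcp2 encodes a protein that binds Go and modulates it, and Cabp5 a calcium-binding protein of the calmodulin family found in several bipolar types.

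The deposited clusters carry only a number. The cell types taken for them here were checked against markers among which none of the 8 genes was used. Cluster 2 was rod bipolar-like, with 7 of 7 rod bipolar markers at least 2-fold above the other cells and 4 of them (Sebox, Car8, Prkca and Vstm2b) among its 10 leading genes. Cluster 3 was ON cone bipolar-like, with 5 of 8 markers met and Cpne9 among its 10 leading genes, and it also met 3 of 10 OFF cone bipolar markers. Clusters 7 and 8 were OFF cone bipolar-like, with 4 and 7 of 10 markers met and with Grik1 and with Irx6, Erbb4 and Fezf2, respectively, among the 10 leading genes. Each also met 2 of 8 ON cone bipolar markers, Scgn and Sox6 in cluster 7 and Scgn and Kcng4 in cluster 8. Cluster 6, led by Igfn1 and Cartpt, met 3 ON cone bipolar markers, none among its 10 leading genes, 1 OFF cone bipolar marker and 5 of 8 amacrine markers, so it is called by its number. Cluster 10, led by Cck, met 5 ON cone bipolar markers and also 2 OFF cone bipolar and 4 amacrine markers and is likewise called by its number. The authors made the clusters from expression in the same cells, so levels between clusters are a description and were not tested.

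The promoters of Grm6, Trpm1 and Cabp5 are printed here because these genes mark 3 different patterns among the bipolar clusters described below: ON clusters, all bipolar clusters with the rod bipolar-like one far ahead, and OFF clusters as well as ON. Each is the 250 bases before the annotated start, from RefSeq on GRCm38.p6, 5′ to 3′ on the gene's strand, which is the plus strand for all 3. Capitals mark GGATTA or its reverse complement TAATCC, of which the Grm6 window holds none, the core bound by the photoreceptor and bipolar homeodomain proteins CRX and OTX2.
Grm6, chr11:50850435-50850684: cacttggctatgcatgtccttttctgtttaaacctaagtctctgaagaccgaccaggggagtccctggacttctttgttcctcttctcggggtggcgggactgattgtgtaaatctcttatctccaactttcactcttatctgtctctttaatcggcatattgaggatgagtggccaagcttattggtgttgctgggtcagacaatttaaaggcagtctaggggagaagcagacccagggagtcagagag
Trpm1, chr7:64153585-64153834: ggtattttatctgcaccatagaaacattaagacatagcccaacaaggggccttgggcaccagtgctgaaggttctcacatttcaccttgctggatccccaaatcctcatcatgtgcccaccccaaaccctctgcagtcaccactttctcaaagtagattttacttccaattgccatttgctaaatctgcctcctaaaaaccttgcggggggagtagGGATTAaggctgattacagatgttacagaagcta
Cabp5, chr7:13397905-13398154: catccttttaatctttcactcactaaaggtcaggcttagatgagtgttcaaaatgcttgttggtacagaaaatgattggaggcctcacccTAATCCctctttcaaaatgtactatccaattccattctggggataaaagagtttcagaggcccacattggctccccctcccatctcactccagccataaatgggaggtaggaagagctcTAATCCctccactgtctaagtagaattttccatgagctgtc
Promoter windows from 250 bases before to 50 after a start were found for 7 of the 8 genes, 12 windows in all. GGATTA, on either strand, was in 2 of the 12, once 34 bases before the first Trpm1 start and at 160 and 41 bases before the Cabp5 start, against 7.06% of the 32851 windows of all genes. The homeodomain core TAATTA, which reads the same on both strands, was in 1 window, 101 bases before 1 of the 4 Pcp2 starts, against 5.29% of all windows. The E-box CANNTG, also the same on both strands, was in 11 of the 12 windows and in 72.3% of all. Windows of Pcp2 overlap, and 1 of its E-boxes was counted in 2 of them. By gene, 6 of the 7 held an E-box. These are matches of letters and not measured binding.

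Each group was 1 library, so no test between groups was possible and no p-value is given. Levels are UMIs (molecules counted by their barcodes) per 1000000 UMIs of the same cluster and library, written CPM, with an exact Poisson 95% interval, and ratios are given as log2 with an exact conditional 95% interval. Where 3 values of 1 gene or share follow each other, they are those of WT, rd10-vehicle and rd10-TMB in that order, and 2 ratios to WT are those of rd10-vehicle and rd10-TMB. These intervals cover counting error only and not the differences between mice or pools. A gene is said to lie past 1.5-fold where the CPM ratio is at least 1.5 in either direction and both libraries together hold at least 50 UMIs. Median UMIs per cell over the 6 bipolar clusters ran from 2464 (WT, cluster 3) to 5208 (WT, cluster 6), and 25 barcodes, 50 cells, occurred in more than 1 library. Free RNA was gauged by the rod cluster, where the cascade genes should be silent. Grm6 stood there at 13.9, 15.1 and 10.3 CPM and Trpm1 at 22.2, 19.8 and 31.7.

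The receptor gene Grm6 (chr11:50850685-50866208 of mm10, plus strand) had the largest ratio of clusters 2 and 3 over clusters 7 and 8 among the 8, by value. In cluster 2 it was at 716, 756 and 705 CPM, and in cluster 3 at 464, 541 and 569. Cluster 10 held it at 438, 1030 and 832 CPM and cluster 6 at 421, 665 and 651, so the ranges of clusters 10 and 2 overlapped, as did those of clusters 6 and 3. In the OFF cone bipolar-like cluster 7 it was at 11.9, 17.9 and 40.0 CPM, from 6, 8 and 15 UMIs, and in cluster 8 at 21.4, 45.7 and 60.1. The WT levels of both OFF clusters were thus close to the level of free RNA in rods. Clusters 2 and 3 together exceeded clusters 7 and 8 by 34.8-fold (95% interval 23.4 to 61.0), 19.9-fold (14.5 to 29.8) and 12.3-fold (9.56 to 16.8). Gpr179 was next, at 13.7-fold (10.4 to 19.4), 12.9-fold (9.69 to 18.6) and 11.1-fold (8.52 to 15.3), so the intervals were apart in WT only. Of all genes with enough UMIs, 2.23%, 2.03% and 2.19% were at least 4-fold higher in clusters 2 and 3 in the 3 libraries. At that size were 7, 6 and 7 of the 8 genes, Cabp5 being below it in each library and Rgs11 in rd10-vehicle as well.

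The channel gene Trpm1 (chr7:64153835-64269775, plus strand) was highest in the rod bipolar-like cluster 2, at 3819, 3613 and 3514 CPM. Cluster 10 followed at 1069, 2339 and 1837, cluster 6 at 669, 1184 and 1130, and cluster 3 at 627, 925 and 900. The ranges of clusters 10, 6 and 3 overlapped from one to the next, whereas that of cluster 2 stood apart. Trpm1 was above the rod level in both OFF clusters and all libraries, at 371, 391 and 433 CPM in cluster 8 and 127, 233 and 216 in cluster 7. After each cell was thinned to 1000 UMIs, 23.4% of WT cluster 8 cells held a Trpm1 UMI (Clopper-Pearson 95% interval 16.4 to 31.7) against 1.89% of WT rods (1.12 to 2.97). Without thinning these shares were 66.9% and 3.05%, at median depths of 4447 and 1423 UMIs per cell.

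The G protein genes were spread more widely. Gnao1 (chr8:93809966-93969388, plus strand) was at 1373, 1281 and 1269 CPM in cluster 2, at 641, 712 and 722 in cluster 3, and still at 311, 258 and 288 in cluster 8. It also stood at 404, 258 and 373 CPM in the amacrine cluster 5 and at 354, 462 and 442 in cluster 9, so Gnao1 was not limited to bipolar cells. Gng13 (chr17:25717171-25719406, plus strand) was at 5139, 4615 and 5605 CPM in cluster 2 and 2843, 2944 and 3389 in cluster 3. In the OFF clusters it was at 818, 822 and 942 (cluster 7) and 368, 378 and 375 (cluster 8), above its 81.8, 62.7 and 68.1 CPM in rods.

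Of the genes of the regulators, Gpr179 was low in both OFF clusters and Rgs11 was less so in cluster 7. Gpr179 (chr11:97332109-97352077, minus strand) was at 672, 620 and 653 CPM in cluster 2 and 306, 374 and 338 in cluster 3, and it did not pass 61.0 CPM in an OFF cluster. Rgs11 (chr17:26202951-26211324, plus strand) was at 181, 179 and 171 CPM in cluster 2, 164, 134 and 110 in cluster 3, 147, 242 and 253 in cluster 6 and 165, 207 and 198 in cluster 10. In the OFF cluster 7 Rgs11 was at 61.6, 71.6 and 32.0 CPM and in cluster 8 at 24.7, 20.1 and 23.7, against 9.45, 4.65 and 6.33 in rods. The ranges of clusters 6, 10 and 2 overlapped from one to the next. Gpr179 was also above the level of rods in the Müller glia of cluster 0, at 36.4 CPM (30.2 to 43.5), 37.4 (34.9 to 40.0) and 33.6 (30.9 to 36.5). Rods of the same libraries held 11.1, 13.9 and 15.0 CPM of Gpr179. After thinning, 2.85%, 3.47% and 2.61% of Müller glia held a Gpr179 UMI, against 0.380%, 0.565% and 0.463% for Grm6 in the same cells. Unthinned, the shares for Gpr179 were 16.8%, 23.2% and 21.6%.

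Pcp2 and Cabp5 did not follow the ON and OFF division cluster by cluster. Clusters 2 and 3 together exceeded clusters 7 and 8 in Pcp2 by 6.74-fold, 7.67-fold and 7.6-fold, and most of that lay in cluster 2. Pcp2 (chr8:3623371-3625545, minus strand) was at 10052, 9564 and 10685 CPM in cluster 2, at 2131, 2149 and 2499 in cluster 3 and at 2350, 2696 and 2973 in cluster 6. It was at 1905, 1535 and 1592 CPM in the OFF cluster 8 but at 77.4, 132 and 147 in the OFF cluster 7, so the clusters with OFF markers differed from each other by more than 10-fold in each library. Cluster 10, which expressed Grm6 and Trpm1, held Pcp2 at 31.9, 191 and 55.3 CPM, near the 70.1, 47.6 and 68.1 CPM of rods except in rd10-vehicle. Cabp5 (chr7:13398132-13408887, plus strand) was highest in cluster 8, at 1582, 1773 and 1895 CPM, and was at 897, 1204 and 1219 in cluster 3, 663, 765 and 749 in cluster 2 and 570, 920 and 1027 in cluster 7. In clusters 6 and 10 it did not exceed 60.7 CPM.

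**Figure D1:**
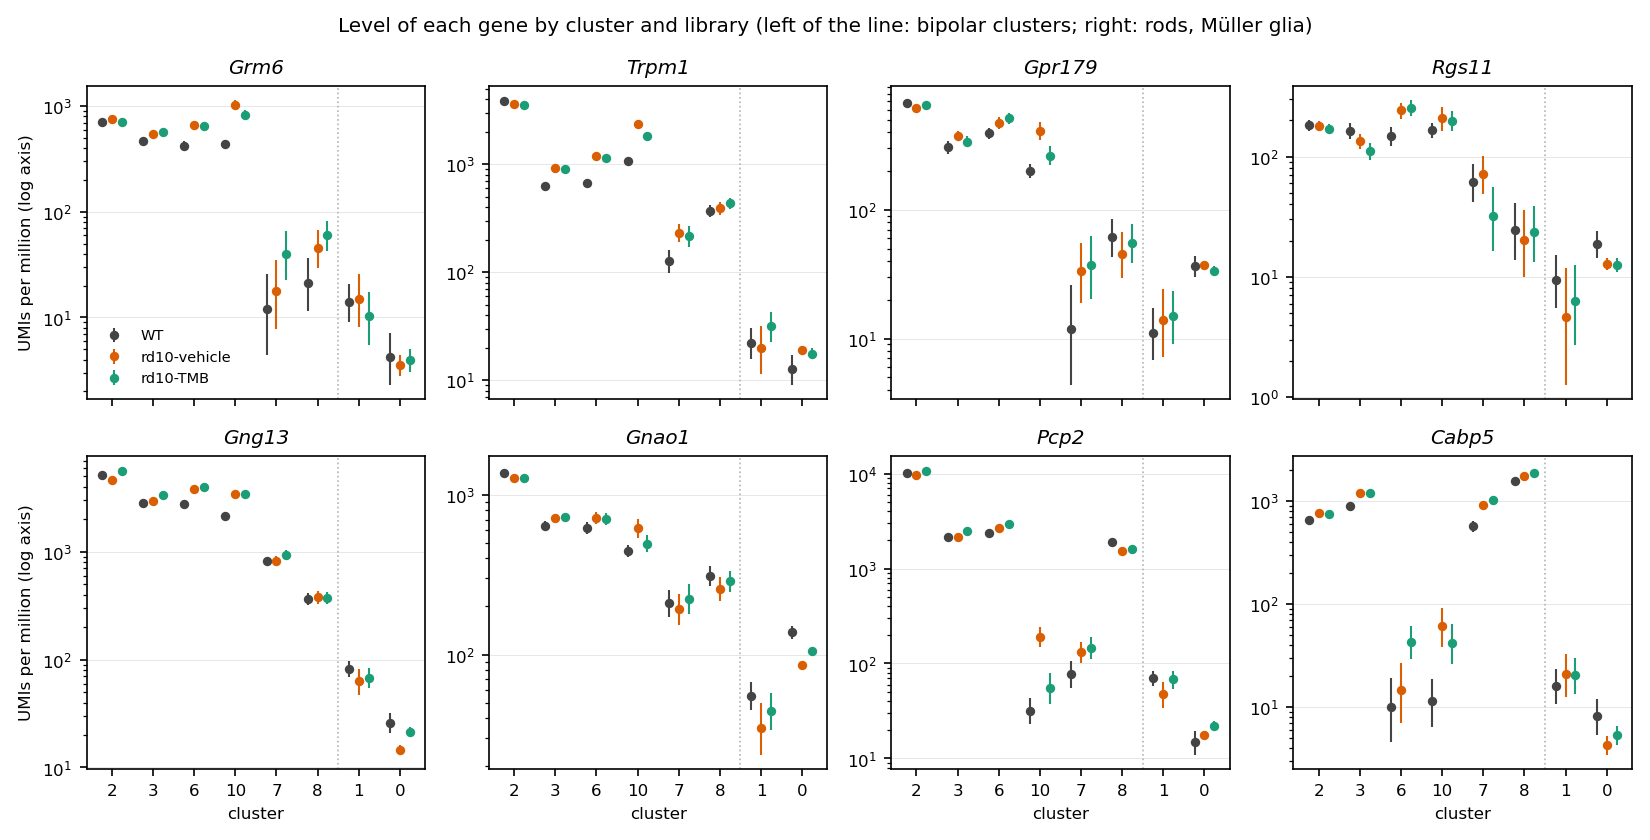
Level of each of the 8 genes in CPM (log axis) in the 6 bipolar clusters, in rods (cluster 1) and in Müller glia (cluster 0), with 1 point per library and its 95% Poisson interval. Grm6 and Gpr179 are lower in the OFF clusters 7 and 8 than in clusters 2, 3, 6 and 10, whereas Cabp5 is highest in cluster 8 (1582 to 1895 CPM) and lowest of the bipolar clusters in 6 and 10.

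In the rod bipolar-like cluster, the 8 genes were at nearly the same level in all 3 libraries, and the rod bipolar cell is the one whose input comes from rods. None of the 8 was past 1.5-fold in rd10-vehicle over WT, rd10-TMB over WT or rd10-TMB over rd10-vehicle, where 6.59%, 5.96% and 4.24% of all genes were. The median log2 ratio of the 8 was -0.08, -0.03 and -0.02, beside 0.02, 0.01 and -0.01 over all genes with at least 50 UMIs. The smallest and largest ratios were -0.16 (Gng13, rd10-vehicle over WT) and 0.28 (Gng13, rd10-TMB over rd10-vehicle). Gng13 was thus lowest in rd10-vehicle and highest in rd10-TMB, with log2 intervals of -0.19 to -0.12 and 0.25 to 0.31. Pcp2 had the same order at a smaller size, with 0.16 (0.14 to 0.18) for rd10-TMB over rd10-vehicle. Trpm1 was slightly below WT in both rd10 libraries, at -0.08 (-0.12 to -0.04) and -0.12 (-0.16 to -0.08), and Cabp5 slightly above, at 0.21 (0.11 to 0.31) and 0.18 (0.07 to 0.28). The share of thinned cells with a Grm6 UMI was 49.9% (44.9 to 54.9), 52.0% (48.3 to 55.7) and 49.7% (45.7 to 53.6), and unthinned it was 93.6%, 91.2% and 91.2%. Thinning left out 4, 6 and 13 cells of cluster 2 with under 1000 UMIs, and 47, 35 and 36 of cluster 3. Over all cells of cluster 2 the summed rod markers were at 962, 526 and 845 CPM and the summed Müller glia markers at 106, 457 and 307, and their part in these small differences was not tested.

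In the ON cone bipolar-like cluster 3, 7 of the 8 log2 ratios to WT were above 0 in each rd10 library. The counting interval was above 0 for 5 genes in rd10-vehicle and 6 in rd10-TMB. None of the 8 was past 1.5-fold in any comparison. Trpm1 in rd10-vehicle over WT was close to it, and past it with median-of-ratios size factors (0.61), as a mean over cells (0.63) and with thinned cells (0.64). Among all genes, 10.7%, 10.2% and 4.66% were past it in rd10-vehicle over WT, rd10-TMB over WT and rd10-TMB over rd10-vehicle. Trpm1 was highest by ratio, with a log2 of 0.56 (0.43 to 0.70) and 0.52 (0.38 to 0.66), and Cabp5 followed with 0.42 (0.31 to 0.54) and 0.44 (0.33 to 0.56). Grm6 gave 0.22 (0.06 to 0.39) and 0.29 (0.13 to 0.46). Rgs11 alone was below WT, with -0.29 (-0.59 to 0.02) and -0.57 (-0.90 to -0.25). The median of the 8 was 0.19 in rd10-vehicle over WT and 0.24 in rd10-TMB over WT, beside -0.02 over all genes in both comparisons. Between the rd10 libraries the median was 0.02, and Gng13 (0.20, 0.14 to 0.26) and Pcp2 (0.22, 0.15 to 0.29) were higher in rd10-TMB. This is not a repeat of cluster 2, as the libraries were the same. From rd10-vehicle to rd10-TMB, Gng13 went from 62.7 to 68.1 CPM in rods, 14.6 to 21.5 in Müller glia and 35.5 to 41.9 in cones. Pcp2 went from 47.6 to 68.1, 17.8 to 22.2 and, lower, 31.6 to 24.8. The part of free RNA was not tested.

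**Figure D2:**
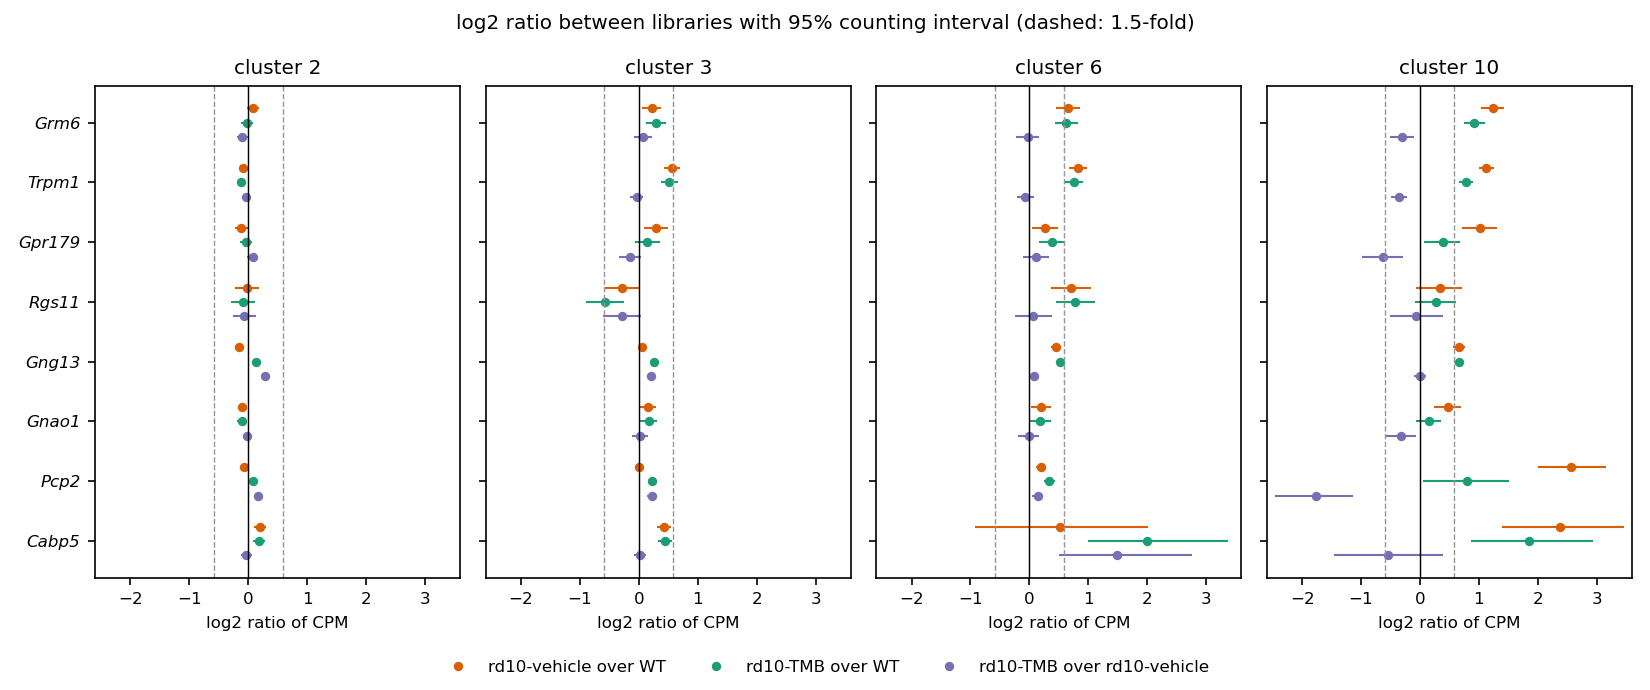
log2 ratio of each gene between libraries in clusters 2, 3, 6 and 10, with its 95% interval for counting error and dashed lines at 1.5-fold. In cluster 2 the 24 ratios lie between -0.16 and 0.28, in cluster 3 Trpm1 and Cabp5 lie above 0 and Rgs11 below it in both comparisons with WT, and in clusters 6 and 10 most ratios to WT lie above 0.

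The WT cells of cluster 3 were of another make-up than the rd10 cells. Of 386 WT cells, 41.2% had under 1000 detected genes (36.2 to 46.3), whereas rd10-vehicle had 18.6% (15.3 to 22.2) and rd10-TMB 21.6% (17.7 to 26.0). These sparse WT cells held Grm6 at 283 CPM, Cabp5 at 283 and Rgs11 at 327, whereas the WT cells with at least 1000 genes held 501, 1023 and 130. Gng13 was at 550 CPM in the sparse WT cells and 3316 in the others, and Pcp2 at 621 and 2443. Rgs11 was therefore higher in the sparse cells and Grm6, Cabp5, Gng13 and Pcp2 lower, while Trpm1 was at 637 and 625. In the sparse rd10 cells Rgs11 was likewise higher (222 against 127 CPM in rd10-vehicle, 261 against 98.9 in rd10-TMB), and Gng13 (1070 against 3091, 1033 against 3568), Pcp2 (1225 against 2221, 1164 against 2600) and Cabp5 (492 against 1260, 348 against 1285) were lower. Trpm1 differed from its WT pattern, at 1369 CPM against 890 in the other cells of rd10-vehicle and 1164 against 880 in rd10-TMB. Grm6 was at 588 against 537 CPM in rd10-vehicle and 457 against 577 in rd10-TMB. With only the cells of at least 1000 genes, Trpm1 had a log2 ratio of 0.51 and 0.49 over WT, while Rgs11 moved to -0.04 and -0.40. Grm6 was then at 0.10 and 0.20 and Cabp5 at 0.30 and 0.33, and Gng13 (-0.10) and Pcp2 (-0.14) were below WT in rd10-vehicle and at 0.11 and 0.09 in rd10-TMB. Thinned to 1000 UMIs, 65.8% (60.5 to 70.8), 84.3% (80.7 to 87.5) and 84.5% (80.4 to 88.1) of the cells of cluster 3 held a Gng13 UMI. Unthinned, these shares were 66.6%, 88.6% and 85.4%, and in rods 7.23%, 6.56% and 6.76% of thinned cells held one. Summed rod markers were at 1880, 795 and 1445 CPM in this cluster and the summed 8 amacrine markers at 171, 43.4 and 27.6. Their part in the ratios was not tested.

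The sexes of the WT pool could be set apart in part by Xist, transcribed from the inactive X, and by Y-linked genes. This split by both was chosen after values were seen. In cluster 3, the 177 WT cells that held Xist but lacked Y-linked UMIs had Trpm1 at 795 CPM (722 to 874), and the 111 that held Y-linked UMIs but lacked Xist had it at 450 (379 to 531). The 76 cells with neither had 551 and the 22 with both had 254. Grm6 was at 511 CPM (453 to 575) in the Xist cells and at 355 (292 to 427) in the Y-linked cells. The split also differed in depth, with a median of 3328 UMIs per cell in the Xist cells and 2706 in the Y-linked cells. Cells with neither had 1320 and cells with both 2665. Against the Xist cells alone, the log2 ratios of Trpm1 were 0.22 and 0.18, less than with all WT cells, and the median of the 8 genes was 0.03 and 0.13. Only WT cells were filtered for this, all rd10 cells were kept, and the part of depth was not tested. In cluster 2 Trpm1 was at 3818 CPM in 192 Xist cells and 3819 in 143 Y-linked cells, with overlapping intervals. As the rd10 pools were female by their titles, sex and genotype cannot be told apart in the comparison with all WT cells. Sex and the individual mouse cannot be told apart in WT.

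**Figure D3:**
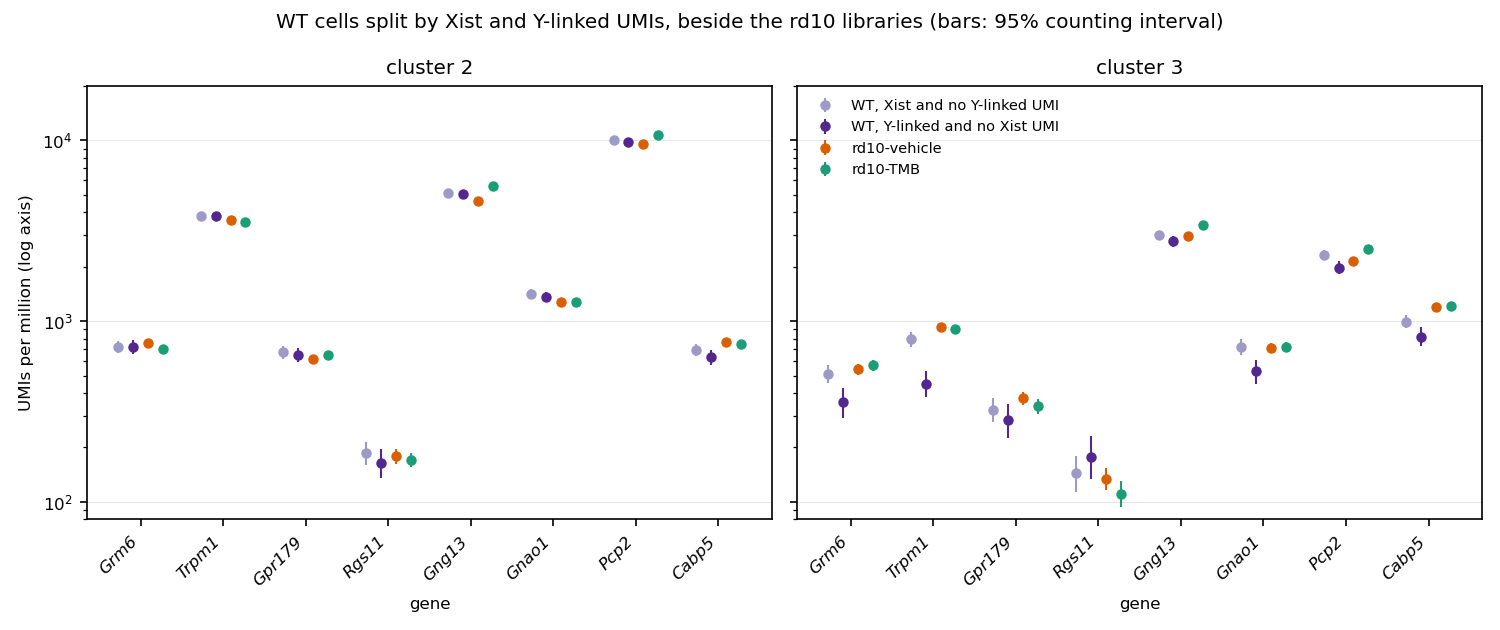
Level of each gene in CPM (log axis) in clusters 2 and 3, for WT cells that held Xist but lacked Y-linked UMIs, WT cells of the opposite kind, and the rd10 libraries, with 95% Poisson intervals. In cluster 3 Trpm1 is at 450 CPM in Y-linked WT cells and 795 in Xist WT cells, beside 925 and 900 in the rd10 libraries, and in cluster 2 the 4 points of each gene lie close together.

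In cluster 6, 3 of the 7 genes that passed 50 UMIs were past 1.5-fold higher than WT in each rd10 library, where 5.63% and 5.01% of all genes were. They were Grm6 (log2 of 0.66 and 0.63), Trpm1 (0.82 and 0.76) and Rgs11 (0.71 and 0.78). In rd10-TMB over rd10-vehicle none of the 7 was past it (5.56% of all genes were). Cabp5 was near 0 here, with 9, 10 and 30 UMIs, of which 12 in rd10-TMB came from a single cell. In cluster 10, 5 of 7 genes in rd10-vehicle and 4 of 7 in rd10-TMB were past 1.5-fold higher than WT, against 13.2% and 6.53% of all genes. They were Grm6 (log2 of 1.23 and 0.93), Trpm1 (1.13 and 0.78), Gng13 (0.67 and 0.67) and Pcp2 (2.56 and 0.81) in both, and Gpr179 (202, 409 and 263 CPM) in rd10-vehicle. Rgs11, past it in cluster 6, was within it in cluster 10, at 0.34 (-0.07 to 0.71) and 0.27 (-0.09 to 0.61). In rd10-TMB over rd10-vehicle, Gpr179 (-0.63, -0.98 to -0.29) and Pcp2 (-1.76, -2.46 to -1.14) were past 1.5-fold lower, as were 6.86% of all genes.

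Amacrine transcripts moved with these ratios, and the split by them was chosen after the data were seen. Cells with at least 3 UMIs of 7 amacrine genes (Gad1, Gad2, Slc6a9, Slc32a1, Tfap2a, Tfap2b and C1ql2) made up 22.0%, 1.11% and 1.32% of cluster 6. In cluster 10 they made up 38.5%, 7.48% and 16.3%. The 39 such WT cells of cluster 6 held no UMI of Grm6, Trpm1 or Rgs11, and the 92 of cluster 10 held 1 UMI of Grm6 and 6 of Trpm1. Without them, Grm6 in cluster 6 was at 586, 677 and 663 CPM and Trpm1 at 932, 1206 and 1151, and no gene that passed 50 UMIs was past 1.5-fold. In cluster 10 without them, Grm6 was at 908, 1145 and 1115 CPM and Trpm1 at 2212, 2637 and 2460, and Gng13 turned from 0.67 to -0.23 in rd10-vehicle over WT. Pcp2 alone was then past 1.5-fold there, with 1.5 in rd10-vehicle over WT and -1.08 in rd10-TMB over rd10-vehicle. Pcp2 in cluster 10 rested on few cells, since 5 of the 107 rd10-vehicle cells held 63 of its 69 UMIs. Without the 5% of cells with the most UMIs, its ratio of rd10-vehicle over WT went from 2.56 to 0.59 and its ratio of rd10-TMB over rd10-vehicle turned from -1.76 to 0.24.

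**Figure D4:**
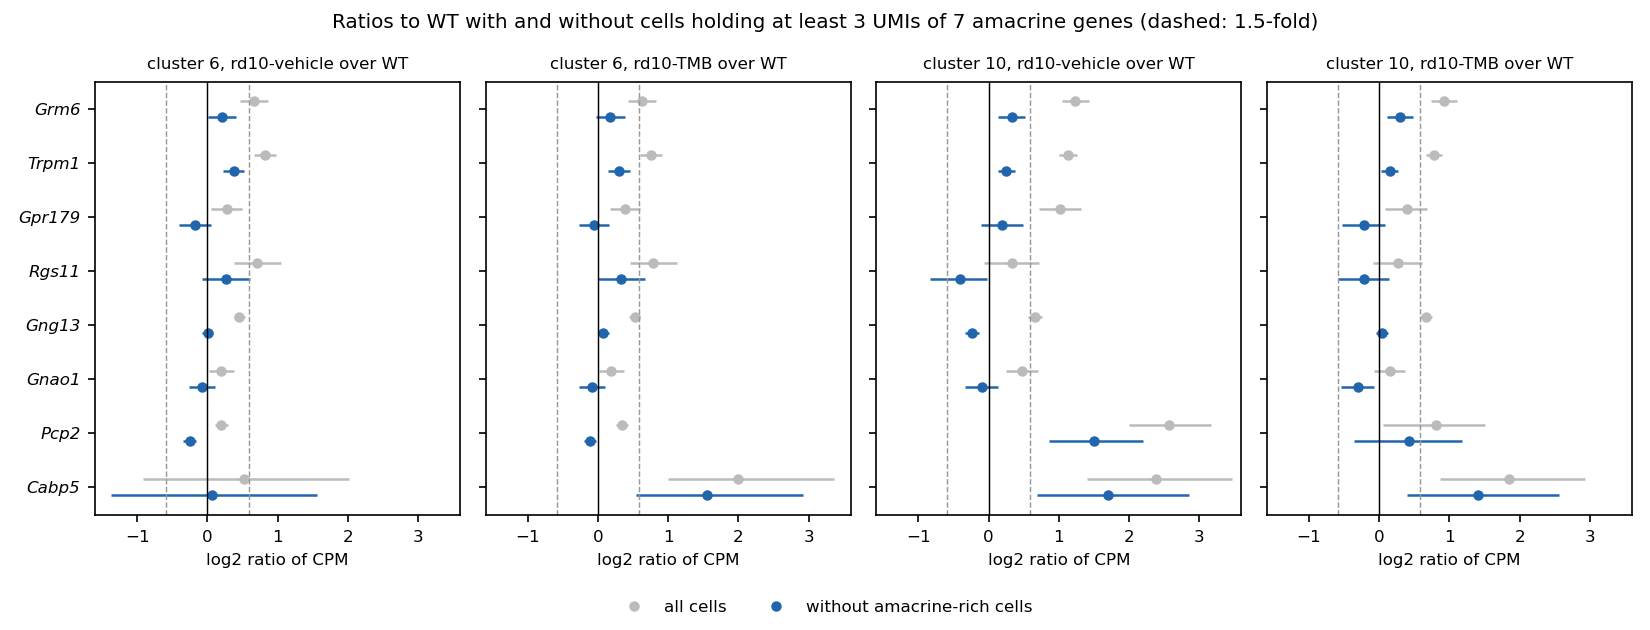
log2 ratio to WT in clusters 6 and 10 for all cells and for cells with under 3 amacrine UMIs, with 95% counting intervals and dashed lines at 1.5-fold. Without the amacrine-rich cells the ratios move toward or past 0, for Gng13 in cluster 10 from 0.67 to -0.23 in rd10-vehicle over WT.

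The OFF clusters had little Grm6 or Gpr179, and their Trpm1, Pcp2 and Cabp5 differed from WT in cluster 7 more than in cluster 8 by value. Of the 6 and 5 genes that passed 50 UMIs there in rd10-vehicle and rd10-TMB over WT, Trpm1 (log2 of 0.86 and 0.76), Pcp2 (0.76 and 0.91) and Cabp5 (0.69 and 0.85) were past 1.5-fold higher, as were 4.46% and 4.05% of all genes. In cells of at least 1000 genes, Pcp2 in rd10-vehicle over WT turned to -0.19, and in cells of at most 10% mitochondrial UMIs it was at 0.27 in rd10-TMB over WT. Pcp2 in WT cells of cluster 7 was at 77.4 CPM, from 39 UMIs, near the 70.1 CPM of WT rods. With the rod level subtracted, its ratios were 3.21 and 3.12. Trpm1 was within 1.5-fold with thinned cells (0.23 and 0.51), as a mean over cells (0.35 and 0.32) and against the Xist cells of WT (0.34 and 0.24). Cabp5 was within it with thinned cells in rd10-vehicle (0.46). In cluster 8 none of 6 genes was past 1.5-fold in rd10-vehicle over WT (7.16% of all genes were), and 1 of 7 was in rd10-TMB over WT (3.35%), Grm6, with 13 UMIs in WT and 38 in rd10-TMB, whose log2 ratio went from 1.42 to 0.30 with thinned cells. Pcp2 was lower than WT in cluster 8, at -0.31 (-0.44 to -0.18) and -0.26 (-0.38 to -0.14). Between the rd10 libraries none of the genes with enough UMIs was past 1.5-fold in cluster 7 (6.46% of all genes were) or in cluster 8 (5.51%).

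Most single cells of cluster 2 held several genes of the core cascade. After thinning, 77.8% (73.4 to 81.8), 76.1% (72.8 to 79.1) and 75.2% (71.7 to 78.6) of the cells had a UMI of at least 2 of Grm6, Trpm1, Gpr179 and Rgs11. In cluster 3 the shares were 30.4% (25.5 to 35.6), 43.8% (39.2 to 48.4) and 40.3% (35.2 to 45.6), and WT was lowest. Clusters 7 and 8 stood between 1.19% and 3.6%, and rods between 0% and 0.629%. Unthinned, the shares were 99.3%, 98.8% and 98.8% in cluster 2 and 58.8%, 76.8% and 77.4% in cluster 3. They were 6.29%, 10.7% and 7.03% in cluster 7, 18.5%, 10.7% and 20% in cluster 8 and at most 0.719% in rods. In cluster 10, of the cells with an amacrine UMI after thinning, 4 of 92 in WT, 5 of 10 in rd10-vehicle and 0 of 18 in rd10-TMB also held at least 2 of the 4 genes.

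The genes whose pattern was most like that of Grm6 over 30 points, the 10 clusters with at least 50 cells in every library by 3 libraries, were Isl1 (Pearson r of 0.99), Grm5 (0.98), Gm30382 (0.96), Gpr179 (0.95) and Chtf18 (0.94). Isl1 encodes a transcription factor of ON bipolar cells and Grm5 another metabotropic glutamate receptor. For Trpm1 they were Trnp1 (0.97), Fstl5 (0.97), Rgs8 (0.96), Gng13 (0.96) and C130073E24Rik (0.95). Within the 18 bipolar points the leading genes were Isl1, Grm5, Gnb5, Gpr179 and Lin7a for Grm6, and Smap2, Prox1, Tmbim6, Emc8 and Gpc6 for Trpm1. Gnb5 encodes the Gβ5 that pairs with RGS proteins of this family. Cabp5 was the member least like Grm6, with r of 0.33 over all points and -0.50 over the bipolar ones. The points share libraries and clusters made from the same genes, so r is a description and has no p.

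Among 18 further signalling genes of the ON bipolar dendrite, 14 passed 50 UMIs in cluster 2, and Gnb1, the Gβ of rods, was the only one past 1.5-fold there, 1 of 14 beside the 6.59%, 5.96% and 4.24% of all genes. It was at 89.1, 34.0 and 57.4 CPM, lowest in rd10-vehicle as the summed rod markers were, whose part was not tested. In cluster 3 Gnb1 was at 191, 61.6 and 117 CPM, and Nyx, which encodes the dendritic protein nyctalopin, was past 1.5-fold higher in rd10-vehicle, at 117, 190 and 143. Gnb3, the Gβ of the ON bipolar cascade and of cones, was at 1588, 2182 and 1946 CPM in cluster 2 and 1249, 1658 and 1448 in cluster 3, below 1.5-fold, and is named after its values were seen. Among 7 other metabotropic receptor genes, 2 passed 50 UMIs in cluster 2 in rd10-vehicle over WT. Grm7 was past 1.5-fold higher there, 1 of 2 beside 6.59% of all genes, with 3, 73 and 44 UMIs. The 3 UMIs of WT are few. In rd10-TMB over WT Grm7 was also higher by value but missed the minimum of 50 UMIs, so it was not called. In rd10-TMB over rd10-vehicle Grm7 was past 1.5-fold lower in cluster 2, 1 of 2 that passed, beside 4.24% of all genes. In cluster 3 it was past it lower in rd10-TMB than in WT, at 40.1, 28.0 and 18.4 CPM, 1 of 2 beside 10.2% of all genes. In cluster 3, 6 of 9 photoreceptor-side partners and 5 of 7 other CaBP and calmodulin genes passed 50 UMIs, and of these only Elfn2 (103, 58.8 and 88.9 CPM) and Cabp1 (191, 107 and 118 CPM) were past 1.5-fold in a comparison, both of them lower in rd10-vehicle than in WT, where 10.7% of all genes were past it. Cabp1 was also past it lower in rd10-TMB than in WT, and Elfn2 was past it in rd10-TMB over rd10-vehicle, where it was higher. None of either list was in cluster 2.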

How the data were processed

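Per the labels, cells were dissociated with papain and profiled with 10x Genomics v3 chemistry, and the submitters' processing notes name Cell Ranger 6.0.1, Seurat 3.2.2 and mm10. The authors deposited natural log values, ln(1 + UMIs per 10000 of the cell), with their clusters and a total UMI count per cell, for cells of at least 500 genes, and the 15242 cells equal the number the study states. Inverting the log gave whole UMIs within 0.001 for 100% of 32620606 entries, and the sums equalled the deposited total counts in all 15242 cells. UMIs were summed per cluster and library and divided by their total, and log2 ratios used a pseudocount of 1 UMI. Shares of cells used cells of at least 1000 UMIs thinned to that number. The study's methods state that doublets were removed with Scrublet before deposit, and no further cells were removed here. By rule, the text names the 8 genes, other listed genes past 1.5-fold in cluster 2 or 3, and the 5 genes most like Grm6 or Trpm1 in pattern. Gnb3 in the bipolar clusters and the listed and cone genes in rods, cones and Müller glia were named after their values were seen. The genes, lists and comparisons were chosen with earlier results of these data known. The scripts were tested on simulated data. Python 3.11.15, numpy 2.4.6, scipy 1.17.1 and pandas 2.3.3 were used. Alternatives changed the scaling, denominator, cell weighting, pseudocount, cell filters, depth, free RNA and the WT cells used.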

Additional observations from a re-analysis of the deposited data

Results flagged for a closer look

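Trpm1 took different directions against WT in different bipolar clusters, and the difference between clusters was not tested. Its log2 ratios in rd10-vehicle and rd10-TMB over WT were -0.080 and -0.12 in cluster 2, against 0.82 and 0.76 in cluster 6, 1.13 and 0.78 in cluster 10 and 0.86 and 0.76 in cluster 7. Pcp2 was likewise at -0.31 and -0.26 in cluster 8, against 0.76 and 0.91 in cluster 7 and 2.56 and 0.81 in cluster 10, also untested. The 0.76 of Pcp2 in cluster 7 turned to -0.19 with cells of at least 1000 genes, and Trpm1 there was at 0.23 with thinned cells and 0.24 against the Xist cells of WT at its lowest. Pcp2 in WT cells of cluster 7 was at 77.4 CPM, near the 70.1 CPM of WT rods. The values for clusters 6 and 10 include the amacrine-rich cells described above, and the value of 2.56 rests on 69 rd10-vehicle UMIs, 63 of them in 5 cells.

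Gnb3, Gnb2 and Gnai2 also stood above WT in some cells outside the bipolar comparisons. In the rod cluster some other listed genes of G protein signalling had log2 ratios to WT below 0. Gnb1 was at -0.32 and -0.21, Gnb5 at -0.40 and -0.26 and Gnaz at -0.50 and -0.71. Gnao1 was at -0.63 and -0.30 and Gng13 at -0.37 and -0.26. Both of the latter are cascade genes, for which the rod cluster served above as the gauge of free RNA. The counting intervals of Gng13 in both comparisons and of Gnao1 in rd10-TMB over WT included 0. In the rod cluster Gnb3 was at 82.3, 683 and 325 CPM (WT, rd10-vehicle, rd10-TMB), log2 ratios of 3.05 (2.79 to 3.32) and 1.98 (1.71 to 2.26) over WT. After thinning, 5.97%, 40.6% and 22.4% of rods held a Gnb3 UMI. In the same rods the cone markers were at 64.0, 79.0 and 58.6 CPM for Arr3, 57.3, 65.1 and 44.3 for Opn1sw, 33.4, 41.8 and 27.7 for Opn1mw, 23.4, 25.6 and 26.9 for Gnat2, 72.3, 107 and 91.8 for Pde6h and 50.6, 54.6 and 48.3 for Gngt2. Pde6c and Cnga3 held 19 UMIs or fewer in each library. The part of cone transcripts in the Gnb3 values was not tested. Gnb2 gave 2.23 and 1.54 in the rod cluster, from 24, 55 and 50 UMIs. Gnai2 gave 1.98 and 1.84 in the cone cluster, from 8 WT UMIs, and Gnb3 gave 1.79 and 1.60 in Müller glia, at 18.4, 64.5 and 56.7 CPM.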

How the results depend on the processing

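The 6 medians over the 8 genes in clusters 2 and 3 were recomputed under each alternative. In cluster 2 and in rd10-TMB over rd10-vehicle of cluster 3 they stayed between the medians of the lower and of the upper counting limits of the 8 genes. In cluster 3, the median of 0.19 for rd10-vehicle over WT became 0.42 as a mean over cells, 0.39 with thinned cells and 0.0301 against WT cells that held Xist but lacked Y-linked UMIs. The median of 0.24 for rd10-TMB over WT became 0.46 as a mean over cells, 0.43 with thinned cells, 0.10 with cells of at least 1000 genes, 0.14 with cells of at most 10% mitochondrial UMIs and 0.13 against the Xist cells. Of 560 single-gene values in clusters 2 and 3, 516 stayed within the counting interval of the reported ratio and 44 lay outside it. In the other clusters 1004 of 1110 stayed, 103 lay outside, and 3 turned the direction of a ratio past 1.5-fold. These 3 were Gng13 in cluster 10, rd10-vehicle over WT (-0.23 without amacrine-rich cells, an alternative chosen after seeing the data), Pcp2 in cluster 10, rd10-TMB over rd10-vehicle (0.24 without the 5% of cells with the most UMIs) and Pcp2 in cluster 7, rd10-vehicle over WT (-0.19 with cells of at least 1000 genes). Of 24 ratios past 1.5-fold, all in clusters 6, 7, 8 and 10, 22 came within it under at least 1 alternative, and 2 stayed past it under each alternative that gave a value, Pcp2 in cluster 10 (rd10-vehicle over WT, down to 0.59 without the 5% of cells with the most UMIs, and with no value after subtracting the rod level, which was above its WT level) and Cabp5 in cluster 7 (rd10-TMB over WT). In clusters 2 and 3, where no reported ratio was past 1.5-fold, 6 alternative values were, in 4 ratios of cluster 3: 3 of Trpm1 (rd10-vehicle over WT), and as a mean over cells Cabp5 (0.72 and 0.68) and Rgs11 (-0.64, rd10-TMB over WT). The cause was not tested. No paired analysis was possible because each group was 1 library. Depth limits Cabp5 in clusters 6 and 10 and Grm6, Gpr179 and Rgs11 in clusters 7 and 8, where a library held 38 UMIs or fewer.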
